A study of Homo sapiens with 6 samples.

Results

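Antisense RNAs are transcripts read from the DNA strand opposite a neighbouring gene. In the tables of this study, 156 of the 58735 genes are annotated with the GENCODE 29 gene type "antisense" and reached 2 FPKM on average over all 6 libraries (FPKM, fragments scaled by exon length and sequencing depth). They are 2.79% of the 5583 antisense genes listed, of which 3306 had a value above 0 in at least 1 library. These genes were chosen by their annotation and selected on the mean level of all 6 libraries, so that they are expressed is no finding. The last genes inside the limit were MED14OS at 2.03 FPKM, AP001107.9 at 2.03 FPKM and LINC01589 at 2.001 FPKM, and the first ones outside it were B3GALT5-AS1 at 1.998 FPKM, ASMTL-AS1 at 1.99 FPKM and DCST1-AS1 at 1.99 FPKM.

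All libraries come from SKOV3, an established human ovarian carcinoma line grown in McCoy's 5A medium with serum. The 3 TIPE2 libraries are from cells given a lentivirus that carries the human TIPE2 cDNA, and the 3 Vector libraries are from cells given the empty vector. The treatment text describes puromycin selection for 1 week for the TIPE2 cells and does not give it separately for the Vector cells, nor does it name the promoter or say whether lines are clones or pools. TIPE2 is the product of TNFAIP8L2, a phosphoinositide-binding protein known as a brake on inflammatory signalling, and the design asks which transcripts differ when it is expressed. The libraries are called biological replicates without a statement on separate cultures, so p-values reflect only how much these samples vary, which may be technical.

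An antisense RNA may share a bidirectional promoter with its neighbour, may overlap the neighbour's messenger RNA, or may lie inside one of its introns. Some act on the neighbouring locus, through transcription across its promoter or through chromatin, and others work elsewhere in the cell or mainly serve as hosts of small nucleolar RNAs. In the HOX clusters of vertebrates, which set positional identity of tissues, antisense genes lie between and across the homeobox genes.

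Each library had 15983317 to 18583473 fragments in genes. TNFAIP8L2 was at 58.4, 47.2 and 48.8 FPKM in TIPE2 1, 2 and 3, against 0, 0.0476 and 0 FPKM in Vector 1, 2 and 3, which follows the labels. Of 9 markers of epithelial carcinoma cells 1 was below 1 FPKM on average, CDH1 at 0.906 FPKM, and the list summed to 1194 to 1451 FPKM in TIPE2 libraries and to 1379 to 1514 FPKM in Vector libraries. All 5 leukocyte and all 4 endothelial markers and 4 of 5 fibroblast markers were below 1 FPKM, with CD3E and CDH5 at 0 and COL1A1 at 1.54 FPKM. Vector 1 held the highest value of the 6 libraries for 29.9% of the 12538 genes tested and the lowest for 29.6%, more than any other library.

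The antisense genes kept here were short and lowly expressed. Their mean levels ran up to 38.8 FPKM with a median of 3.33 FPKM, and 16 of them reached 10 FPKM. For comparison, 47.9% of protein coding genes and 169 of 7629 genes of the type lincRNA reached the same 2 FPKM. The merged exons had a median length of 1097 bases, and 25 genes consist of a single merged exon. A member was covered by 4 to 8500 fragments in a library, with a median of 72, and 29 members had fewer than 20 fragments in at least 1 library, where counting error is large.

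A protein coding gene overlaps on the other strand for 126 of the 156 antisense genes, and 30 have none. For genes with several such neighbours, which are 19, the one with the longest shared span is called the main partner here, giving 120 different main partners. The gene starts face each other within the overlap (head to head) in 46 pairs, the gene ends overlap (tail to tail) in 34, the antisense gene lies wholly inside the sense gene in 41 and spans it in 5. Annotated exons of both genes share bases in 96 pairs and none in 30. Of the antisense genes with no such partner, 19 lie within 1 kb of a coding gene of the other strand, 15 of them start to start.

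The labels do not say whether the libraries kept strand, so the tables were examined for what happens where exons of both strands coincide. Among 134 genes whose exons are covered to at least 95% by exons on the other strand of a gene of at least 10 FPKM, 128, or 95.5%, were listed at 0 in all 6 libraries. Among 102 genes covered in the same way on their own strand, 77, or 75.5%, were. Of the antisense genes with over 95% of their exon bases shared with the other strand, 97.9% of 373 were at 0 and none reached 2 FPKM. Of those with no shared exon base, 45.5% of 2451 were at 0 and 53, or 2.16%, reached 2 FPKM, and of those sharing over 0 to 25%, 25.7% of 1498 were at 0 and 65, or 4.34%, reached 2 FPKM. The share at 0 was thus lowest at small overlaps and highest where nearly all exon bases were shared. Genes whose exons lay almost wholly under exons of the other strand received few or no fragments.

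**Figure D1:**
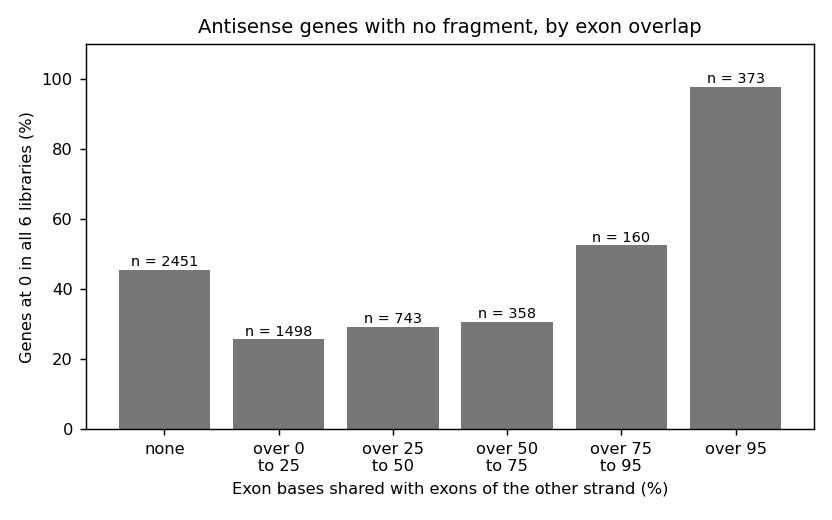
Share of antisense genes with no fragment in any of the 6 libraries (vertical axis, percent) by the share of their exon bases that also belong to exons of the other strand (horizontal axis, 6 classes, with the number of genes above each bar). The bar over 95% stands at 97.9% of 373 genes, the bar with no shared base at 45.5% of 2451, and the bars between over 0 and 75% lie between 25.7% and 30.7%.

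The deposited values divide by the whole exon length, also where bases are shared. The members share a median of 7.18% of their exon bases with the other strand and 75.6% at most. If all fragments came from the free bases, dividing by these alone would raise the level more than 1.5-fold for 23 members and more than 2-fold for 8. AC024075.3 would stand at 12.4 FPKM in place of 3.03 FPKM and AL928654.2 at 30.1 FPKM in place of 9.61 FPKM. Where an antisense exon lies in an intron of its partner, fragments of the antisense RNA and of the partner's unspliced RNA cannot be told apart without a stated strand.

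The highest of these genes by mean level was AC004846.1. AC004846.1 (GRCh38 chromosome 14, 73242651 to 73245979, minus strand), which lies inside PAPLN, the gene of the extracellular matrix protein papilin, had 31.1, 35.9 and 32.3 FPKM in the TIPE2 libraries, against 49.8, 42.6 and 40.8 FPKM in the Vector libraries. PAPLN itself had 28.1, 26.4 and 12.7 FPKM in the TIPE2 libraries, against 12.8, 17.2 and 14.6 FPKM in the Vector libraries. The antisense values did not overlap between the groups and the PAPLN values did. AC099850.3, inside the cell cycle gene PRR11, had 31.5, 34.6 and 32.5 FPKM in the TIPE2 libraries, against 34.3, 39.5 and 26.5 FPKM in the Vector libraries, with overlapping groups. AC005520.2, head to head with ELMSAN1, a component of a histone deacetylase complex, followed at 19.7, 24.8 and 28.0 FPKM in the TIPE2 libraries, against 33.7, 24.4 and 23.5 FPKM in the Vector libraries.

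AC005288.1, which overlaps the tail of MED1, a subunit of the Mediator complex, had 20.4 to 26.2 FPKM in the TIPE2 libraries and 21.8 to 26.8 FPKM in the Vector libraries. AL049870.3, tail to tail with C14orf28, had 20.8 to 22.7 FPKM in the TIPE2 libraries and 17.8 to 31.8 FPKM in the Vector libraries. AC015660.2, whose merged exons measure only 198 bases, has no coding gene across from it, and its nearest neighbour LRRC28 lies 5884 bases away. It had 17.3 to 25.8 FPKM in the TIPE2 libraries and 13.4 to 21.9 FPKM in the Vector libraries, from 42 to 98 fragments a library. None of these 3 genes separated the groups.

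AC020916.1 (chromosome 19, 13823880 to 13842928, minus strand) is annotated as 1 unbroken exon of 19049 bases and had the most fragments of all members, 5861 to 8500 a library. It had 23.2, 24.5 and 22.0 FPKM in the TIPE2 libraries, against 19.5, 22.0 and 23.1 FPKM in the Vector libraries, with overlapping groups. Within it, on the same strand, lie the genes MIR23A, MIR27A and MIR24-2, a cluster of microRNAs cut from a common precursor. Their own entries, shorter than the host and wholly inside its exon, were listed at 0 in all 6 libraries, so the tables hold no value for the mature microRNAs. The mature forms from the 3′ arm of each hairpin are shown because this member is the only one that contains a microRNA gene; they are taken from RefSeq on GRCh38.p14, 5′ to 3′, with the seed (bases 2 to 8) in capitals. The 3 seeds differ, though those of miR-23a and miR-27a begin with the same letters.
hsa-miR-23a-3p: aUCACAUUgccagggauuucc
hsa-miR-27a-3p: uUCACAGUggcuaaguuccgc
hsa-miR-24-3p: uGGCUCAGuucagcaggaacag

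Antisense genes stood above their main sense partner in 56 of the 126 pairs, or 44.4%. These include all 32 pairs whose partner averaged under 1 FPKM, where the choice of members at 2 FPKM or more fixes the order. Among the 94 main pairs in which the partner also reached a mean of 1 FPKM, the median ratio of the antisense to the sense level, both in FPKM, was 0.28, and the antisense gene was the higher one in 24. The ratio was highest for AC020916.1, at 16.7 times its tail-to-tail partner ZSWIM4. AC106786.1 stood at 5.41 times PRDM6, a transcriptional repressor known from smooth muscle, AC100810.1 at 5.40 times CLN8, a protein of the endoplasmic reticulum, BNC2-AS1 at 4.09 times BNC2, a zinc finger protein, and AC005520.2 at 4.07 times ELMSAN1. It was lowest for BX470102.1, at 0.0021 times S100A6, a calcium-binding protein with 2234 to 3902 FPKM in the TIPE2 libraries and 2474 to 3031 FPKM in the Vector libraries. BX470102.1 had 3.63, 4.96 and 6.32 FPKM in the TIPE2 libraries, against 3.22, 6.76 and 11.3 FPKM in the Vector libraries. All these ratios rest on whole exon lengths. In 74 of the 94 pairs the genes share exon bases, and where these receive few fragments both levels may be understated. ZSWIM4 shares 2286 exon bases with AC020916.1 and PRDM6 shares 328 with AC106786.1, while CLN8, BNC2 and ELMSAN1 share none with theirs.

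**Figure D2:**
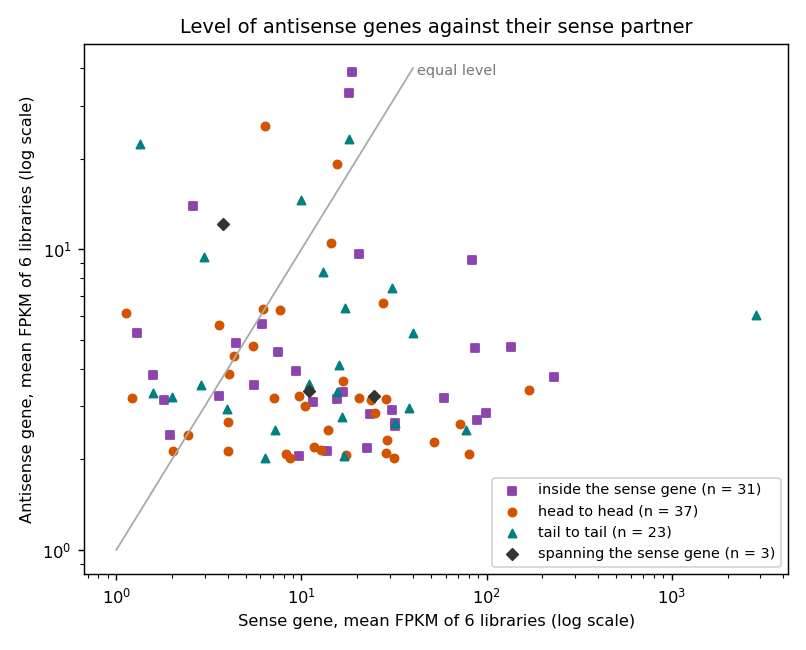
Mean level of each antisense gene (vertical axis, FPKM, log scale) against its main sense partner (horizontal axis, FPKM, log scale) over the 6 libraries, for the 94 pairs with a partner of at least 1 FPKM, coloured by how the genes lie to each other; the line marks equal levels. Points above the line are the 24 antisense genes that exceed their partner, and the point at the far right is BX470102.1 against S100A6.

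Set against Vector, TIPE2 cells showed no antisense gene that passed the test. With limma on log2(FPKM + 1) and Benjamini-Hochberg adjustment over all 12538 genes that averaged 1 FPKM or more, 0 of 156 members passed at an adjusted p under 0.05, where 3 genes of the whole table, or 0.0239%, did. The smallest adjusted p of a member was 0.355. At an unadjusted p under 0.05 there were 18 members, or 11.5%, against 5.99% of all genes tested. limma-voom on fragments recovered from the values also passed 0 members and had 13 at an unadjusted p under 0.05, with no share of all genes given here. The median log2 change of the members was -0.023, beside -0.0056 over all genes, with single changes between -0.69 and 0.67 and a median standard error of 0.17. Positive changes numbered 71 and negative ones 85.

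Of the 18 members at an unadjusted p under 0.05, 5 were higher in TIPE2 libraries, or 3.21%, close to the 3.01% among all genes. The other 13 were lower, or 8.33%, against 2.97% among all genes. For 10 of these 13, the highest of the 6 values was in Vector 1. Without Vector 1, 28 members had an unadjusted p under 0.05 and again none passed. The share of all genes without Vector 1 is not given here, so the rise from 18 is not read as particular to the members. Groups did not overlap for 23 members, or 14.7%, against 11.5% of all genes. In 10 of them the TIPE2 values lay above, or 6.41% against 6.18%, and in 13 they lay below, or 8.33% against 5.31%. Vector 1 held the highest value for 29.5% of the members, much like its 29.9% among all genes, and TIPE2 1 held the lowest for 29.5% of members against 24.3% of all genes. The part of these libraries in the excess of lower members was not tested.

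**Figure D3:**
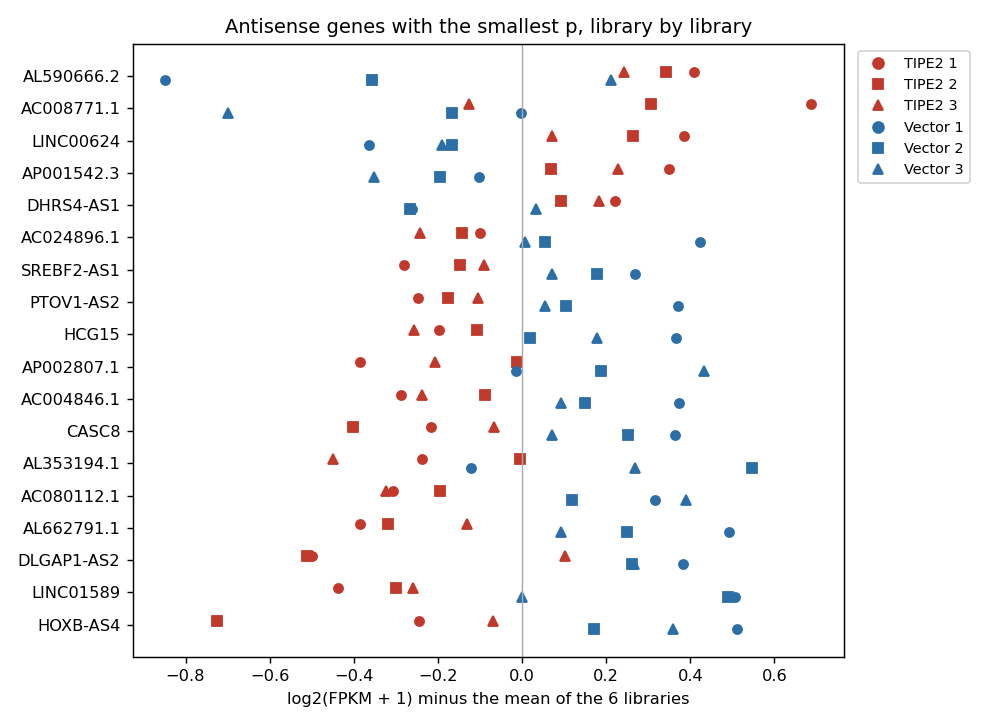
The 18 antisense genes with an unadjusted p under 0.05 in the comparison of TIPE2 with Vector, 1 row each, as log2(FPKM + 1) minus the mean of the 6 libraries (horizontal axis); TIPE2 libraries are red and drawn above the blue Vector libraries. The 5 upper rows are higher in TIPE2 libraries, the 13 lower rows are lower, and Vector 1 (blue circle) is the rightmost point in 10 of those 13.

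The smallest p belonged to AC080112.1 (chromosome 17, 40360655 to 40364693, plus strand), which spans the connexin gene GJD3 and shares 733 exon bases with it. It had 9.40, 10.2 and 9.28 FPKM in the TIPE2 libraries, against 15.0, 13.0 and 15.8 FPKM in the Vector libraries. All TIPE2 values lay below all Vector values, with a log2 change of -0.55 (SE 0.11, limma adjusted p = 0.355). GJD3 had 2.35, 4.07 and 3.46 FPKM in the TIPE2 libraries, against 4.01, 4.50 and 4.22 FPKM in the Vector libraries, and these groups overlapped. The whole GJD3 gene measures 885 bases, so the 733 shared exon bases are most of it and its level is uncertain.

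AC004846.1, described above as the highest member, was also among those with lower values in the TIPE2 libraries (log2 change -0.41, SE 0.13, limma adjusted p = 0.736), and the other genes named here stood at lower levels. AL662791.1 had 4.43, 4.69 and 5.48 FPKM in the TIPE2 libraries, against 8.99, 7.43 and 6.56 FPKM in the Vector libraries. Its neighbour on the same strand, HCG15, overlaps it in span, so that fragments may be split between them, and also lay lower in every TIPE2 library, at 1.92, 2.11 and 1.80 FPKM, against 3.31, 2.39 and 2.79 FPKM in the Vector libraries. LINC01589 had 1.14, 1.36 and 1.42 FPKM in the TIPE2 libraries, against 3.12, 3.07 and 1.90 FPKM in the Vector libraries, from only 12 to 30 fragments a library. DLGAP1-AS2, inside the synaptic scaffold gene DLGAP1, had 1.43, 1.41 and 2.68 FPKM in the TIPE2 libraries, against 3.47, 3.11 and 3.13 FPKM in the Vector libraries. The groups did not overlap for any of these genes. DLGAP1 itself was below 0.1 FPKM in every library. CASC8, a gene of a region known for cancer susceptibility, had 2.58, 2.15 and 2.97 FPKM in the TIPE2 libraries, against 4.35, 3.95 and 3.37 FPKM in the Vector libraries. The limma adjusted p of these genes lay between 0.588 and 0.755.

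Among the members with higher values in the TIPE2 libraries, LINC00624 had the smallest p. LINC00624 (chromosome 1, 147258885 to 147517875, minus strand) overlaps the tail of CHD1L, a chromatin remodeller recruited by poly(ADP-ribose). It had 19.0, 17.4 and 15.1 FPKM in the TIPE2 libraries, against 10.9, 12.7 and 12.4 FPKM in the Vector libraries, a log2 change of 0.48 (SE 0.12, limma adjusted p = 0.642). CHD1L had 9.99, 8.98 and 9.11 FPKM in the TIPE2 libraries, against 10.2, 11.0 and 10.5 FPKM in the Vector libraries, a log2 change of -0.16 (limma adjusted p = 0.834). The groups did not overlap on either side of this pair, and the directions were opposite.

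AP001542.3 has no coding gene across from it and lies 295 bases from the end of IMPA2, an inositol monophosphatase. It had 16.3, 13.2 and 14.9 FPKM in the TIPE2 libraries, against 11.7, 10.9 and 9.64 FPKM in the Vector libraries, without overlap, with a log2 change of 0.43 (SE 0.12, limma adjusted p = 0.662). AL590666.2, tail to tail with the brain proteoglycan gene BCAN, had 5.98, 5.66 and 5.22 FPKM in the TIPE2 libraries, against 1.92, 3.11 and 5.09 FPKM in the Vector libraries. BCAN was below 1 FPKM throughout. AC008771.1 had 6.44, 4.72 and 3.23 FPKM in the TIPE2 libraries, against 3.61, 3.11 and 1.84 FPKM in the Vector libraries, and AL451069.3 had 5.45, 7.91 and 3.85 FPKM in the TIPE2 libraries, against 2.50, 4.54 and 3.56 FPKM in the Vector libraries. Both of these overlapped between the groups.

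DHRS4-AS1 (chromosome 14, 23938731 to 23988839, minus strand) is known from human liver cells as an RNA that represses the genes of the DHRS4 cluster, which encode carbonyl reductases. It had 4.58, 4.11 and 4.44 FPKM in the TIPE2 libraries, against 2.99, 2.98 and 3.90 FPKM in the Vector libraries, with no overlap and a log2 change of 0.33 (SE 0.12, limma adjusted p = 0.779). DHRS4 had 4.83, 7.17 and 8.40 FPKM in the TIPE2 libraries, against 9.12, 6.64 and 5.87 FPKM in the Vector libraries, and DHRS4L2 had 3.29, 3.55 and 4.65 FPKM in the TIPE2 libraries, against 5.36, 3.77 and 3.75 FPKM in the Vector libraries. Both overlapped between the groups. DHRS4 and DHRS4L2 are close copies of each other, so that fragments may be split between them. LBX2-AS1, head to head with the homeobox gene LBX2, had 3.00, 2.53 and 2.59 FPKM in the TIPE2 libraries, against 2.10, 2.26 and 1.97 FPKM in the Vector libraries, while the groups overlapped for LBX2, at 2.16 to 2.79 FPKM in the TIPE2 libraries and 2.23 to 2.51 FPKM in the Vector libraries.

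The other main pair with both genes tested in which neither gene overlapped between the groups was SREBF2-AS1 with SREBF2, which encodes the master transcription factor of cholesterol synthesis. SREBF2-AS1 (chromosome 22, 41831215 to 41834665, minus strand) had 2.14, 2.45 and 2.59 FPKM in the TIPE2 libraries, against 3.60, 3.32 and 3.01 FPKM in the Vector libraries, a log2 change of -0.35 (SE 0.11, limma adjusted p = 0.746). SREBF2 had 27.7, 28.5 and 26.1 FPKM in the TIPE2 libraries, against 20.8, 23.0 and 24.1 FPKM in the Vector libraries, a log2 change of 0.27 (SE 0.11, limma adjusted p = 0.815). As in the pair of LINC00624 and CHD1L, the directions were opposite. The log2 ratio of the antisense to the sense gene, each with 1 FPKM added, was 0.62 lower in TIPE2 than in Vector libraries for SREBF2-AS1 and 0.64 higher for LINC00624. Each had an exact two-sided permutation p of 0.1, the smallest that 3 against 3 libraries allow. No ratio could therefore have passed the threshold used for single genes. For both pairs this p was fixed by their choice. Where the groups of both genes separate in opposite directions, the ratio must separate too, so the test adds nothing here. The same p was reached by 17 of the 126 main pairs in all, or 13.5%. Larger differences among them were found for KRT7-AS, 0.81 higher, HOXB-AS4, 0.70 lower, and HOXB-AS1, 0.66 lower in TIPE2 libraries. No ratio had an adjusted p under 0.741.

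FGD5-AS1 (chromosome 3, 14920347 to 14948424, minus strand), a widely expressed long noncoding RNA, offers a pair with the same direction on both sides. It had 17.0, 17.0 and 15.8 FPKM in the TIPE2 libraries, against 12.4, 14.8 and 14.9 FPKM in the Vector libraries, a log2 change of 0.23 (SE 0.11, limma adjusted p = 0.834). NR2C2, an orphan nuclear receptor that starts head to head with it, had 2.47, 2.42 and 2.40 FPKM in the TIPE2 libraries, against 1.34, 2.21 and 2.34 FPKM in the Vector libraries, a log2 change of 0.23 (limma adjusted p = 0.842). Neither gene overlapped between the groups, though NR2C2 is not the main partner by span. Without Vector 1 the log2 change was 0.15 for FGD5-AS1 and 0.069 for NR2C2. FGD5, which it overlaps at the tail and which is known from endothelial cells, was below 0.1 FPKM in every library.

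The promoters of these head-to-head pairs are printed because both genes of each pair start within a short stretch of DNA, with opposite directions in the first pair and the same direction in the second. Each line gives the RefSeq window on GRCh38.p14 from 250 bases before to 50 bases after the annotated start, on the gene's own strand, 5′ to 3′. Capitals mark GC boxes (GGGCGG or, on the other strand, CCGCCC) and CCAAT boxes (CCAAT or ATTGG), and overlapping matches run together. SREBF2-AS1 is chr22:41834616-41834915, minus strand, SREBF2 is chr22:41832855-41833154, plus strand, FGD5-AS1 is chr3:14948392-14948691, minus strand, and NR2C2 is chr3:14947333-14947632, plus strand.
SREBF2-AS1: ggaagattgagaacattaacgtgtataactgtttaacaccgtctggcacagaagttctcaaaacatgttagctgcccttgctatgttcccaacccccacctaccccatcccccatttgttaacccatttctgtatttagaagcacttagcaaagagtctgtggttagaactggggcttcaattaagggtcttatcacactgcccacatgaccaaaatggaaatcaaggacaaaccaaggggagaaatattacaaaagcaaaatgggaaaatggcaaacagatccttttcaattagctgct
SREBF2: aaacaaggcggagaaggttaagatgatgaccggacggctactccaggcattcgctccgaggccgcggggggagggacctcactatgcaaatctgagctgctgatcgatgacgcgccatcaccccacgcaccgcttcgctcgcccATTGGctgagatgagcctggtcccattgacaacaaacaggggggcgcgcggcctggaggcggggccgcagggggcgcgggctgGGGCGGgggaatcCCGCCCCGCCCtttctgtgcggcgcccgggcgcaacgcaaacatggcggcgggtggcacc
FGD5-AS1: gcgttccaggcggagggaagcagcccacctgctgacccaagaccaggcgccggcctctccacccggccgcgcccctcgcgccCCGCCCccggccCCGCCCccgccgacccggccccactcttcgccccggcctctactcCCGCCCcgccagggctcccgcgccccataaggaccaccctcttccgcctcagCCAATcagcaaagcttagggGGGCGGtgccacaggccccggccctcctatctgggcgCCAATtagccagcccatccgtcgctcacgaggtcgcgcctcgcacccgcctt
NR2C2: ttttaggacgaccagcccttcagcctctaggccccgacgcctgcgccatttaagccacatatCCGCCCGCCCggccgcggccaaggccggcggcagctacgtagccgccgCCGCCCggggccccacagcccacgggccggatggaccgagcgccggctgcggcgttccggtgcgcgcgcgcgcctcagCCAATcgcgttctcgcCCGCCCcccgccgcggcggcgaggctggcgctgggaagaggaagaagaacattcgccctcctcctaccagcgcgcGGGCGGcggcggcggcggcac

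The SREBF2 window had a GC content of 68%, 3 GC boxes and 1 CCAAT box, whereas the SREBF2-AS1 window, whose start lies 1560 bases away, had a GC content of 42% and none of these letters. The FGD5-AS1 and NR2C2 starts lie 858 bases apart, with a GC content of 74.7% and 4 GC boxes for FGD5-AS1 and of 75.3% and 5 GC boxes for NR2C2. Over the 46 members for which a RefSeq window was matched by gene identifier or symbol, the median GC content was 63.3%. It was 67.8% for the 84 windows matched among the 120 main sense partners of all members, many of which face members without a window, and 58.7% for all 35116 windows. A GC box was present in 50% of the members' windows, in 67.9% of the partners' windows and in 45.0% of all windows. A CCAAT box was present in 39.1%, 41.7% and 34.6% of the same sets in that order. A match describes letters in the window and not a bound factor.

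The sense partners as a group also held no gene that passed. Of 120 main partners, 91 had a mean of at least 1 FPKM and were tested with limma. Of these 0 passed, and 5 had an unadjusted p under 0.05, where the share among all genes was 5.99%. limma-voom passed 0 as well. Their median log2 change was 0.0037. In 52 of the 94 pairs with both genes tested, or 55.3%, the antisense and the sense change had the same sign. Leaving out Vector 1 brought this to 40.4%. Across the 94 pairs, Pearson's r of the changes was 0.14, with 0.017 over the 74 pairs with shared exon bases and 0.46 over the 20 without. These pairs all come from the same 6 libraries and are not independent of each other.

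**Figure D4:**
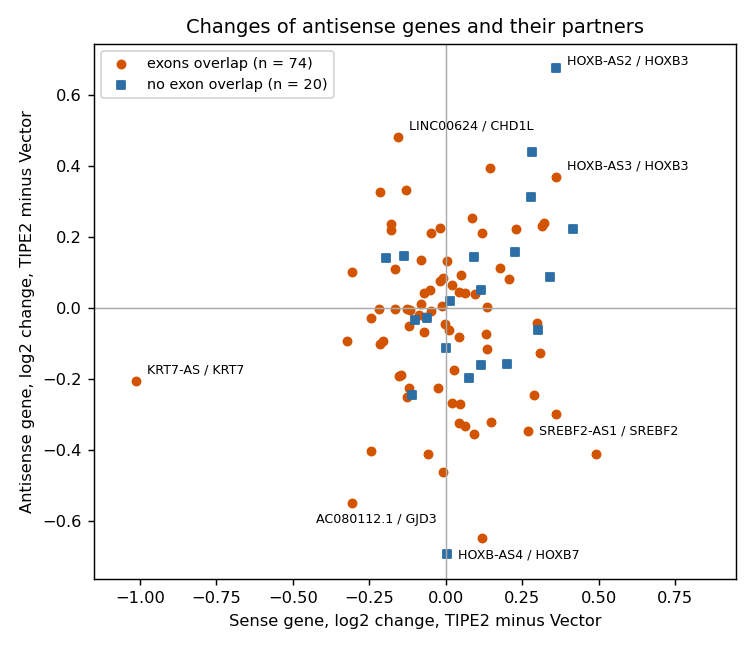
Log2 change (TIPE2 minus Vector) of each antisense gene (vertical axis) against its main sense partner (horizontal axis) for 94 pairs, split by whether their exons share bases. The points fill all sectors of the plot, with 52 of 94 in the lower left and upper right; LINC00624 / CHD1L and SREBF2-AS1 / SREBF2 lie in the other sectors.

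The main partner with the smallest p was KRT7, a keratin of simple epithelia, described here after its value was seen. KRT7 had 139.1, 165.7 and 147.2 FPKM in the TIPE2 libraries, against 384.0, 240.9 and 303.4 FPKM in the Vector libraries, a log2 change of -1.01 (SE 0.20, limma adjusted p = 0.343). KRT7-AS, which lies inside it, had 3.51, 3.55 and 3.12 FPKM in the TIPE2 libraries, against 3.18, 3.88 and 5.35 FPKM in the Vector libraries, a log2 change of -0.21 (SE 0.16, limma adjusted p = 0.844), which was -0.042 without Vector 3. The KRT7 values did not overlap between the groups, and the KRT7-AS values did.

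The HOXB cluster held 4 members, HOXB-AS1, HOXB-AS2, HOXB-AS3 and HOXB-AS4, all on the plus strand across the minus-strand homeobox genes. HOXB-AS3 (chromosome 17, 48549630 to 48606414), from which a peptide has been described in human colon cancer cells, was the strongest at 22.9, 23.5 and 17.8 FPKM in the TIPE2 libraries, against 10.4, 19.6 and 20.8 FPKM in the Vector libraries. HOXB-AS2 (chromosome 17, 48557262 to 48560333) lies wholly within the span of HOXB-AS3 and of HOXB3. It had 6.04, 5.08 and 1.49 FPKM in the TIPE2 libraries, against 0.749, 2.92 and 2.82 FPKM in the Vector libraries, from 10 to 98 fragments a library. Both genes had their lowest value in Vector 1, and the groups overlapped for both. Their log2 changes were 0.37 (SE 0.25) and 0.67 (SE 0.46), each with a limma adjusted p of 0.842. Without Vector 1 the log2 change was 0.069 for HOXB-AS3 and 0.29 for HOXB-AS2, and without TIPE2 3 that of HOXB-AS2 was 1.14.

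HOXB3, the main partner of HOXB-AS1, HOXB-AS2 and HOXB-AS3, followed a like order with 19.6, 18.7 and 14.5 FPKM in the TIPE2 libraries, against 12.0, 15.1 and 13.2 FPKM in the Vector libraries (log2 change 0.36, SE 0.14, limma adjusted p = 0.807). HOXB-AS1 (chromosome 17, 48543551 to 48551250) had 2.24, 3.38 and 3.15 FPKM in the TIPE2 libraries, against 4.18, 3.99 and 3.22 FPKM in the Vector libraries. HOXB-AS4 (chromosome 17, 48628675 to 48634932), at the other end of the cluster, had 1.95, 1.11 and 2.33 FPKM in the TIPE2 libraries, against 3.97, 2.93 and 3.48 FPKM in the Vector libraries, with no overlap and the lowest log2 change of all members, -0.69 (SE 0.18, limma adjusted p = 0.659). Its partner HOXB7 had 74.4, 72.3 and 67.9 FPKM in the TIPE2 libraries, against 93.3, 65.4 and 59.4 FPKM in the Vector libraries. Of the homeobox genes that HOXB-AS3 spans, HOXB4 lay at 13.4 to 16.4 FPKM in the TIPE2 libraries and 12.9 to 14.3 FPKM in the Vector libraries, HOXB5 at 16.0 to 25.1 FPKM in the TIPE2 libraries and 17.1 to 23.5 FPKM in the Vector libraries, and HOXB6 at 54.6 to 59.6 FPKM in the TIPE2 libraries and 55.0 to 64.0 FPKM in the Vector libraries. HOXB2, head to head with HOXB-AS1, lay at 45.0 to 48.9 FPKM in the TIPE2 libraries and 40.8 to 54.2 FPKM in the Vector libraries. Each of these homeobox genes overlapped between the groups.

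**Figure D5:**
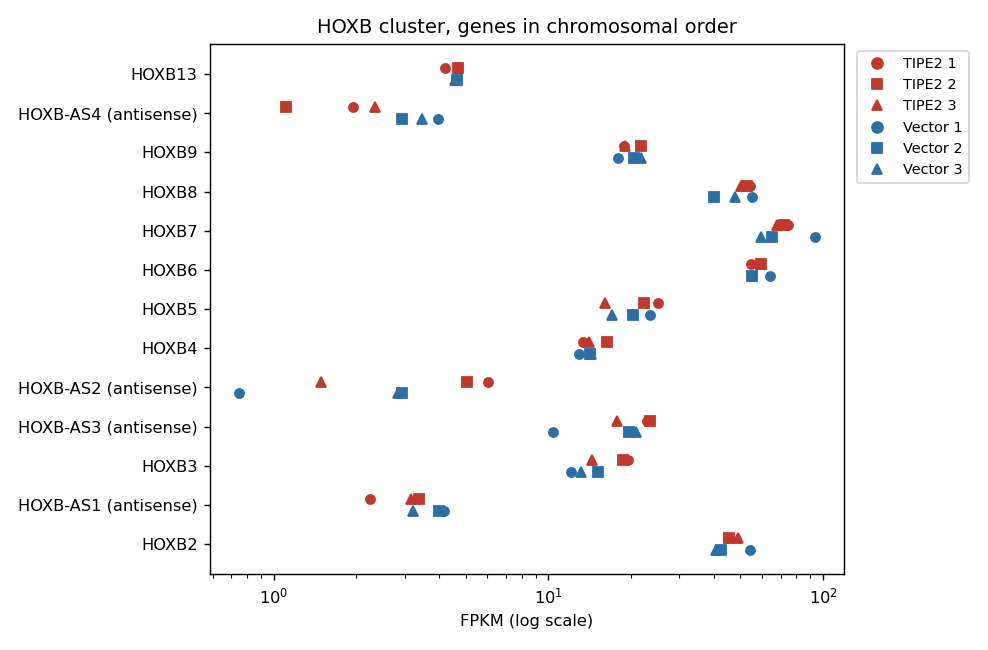
FPKM (log scale) of the antisense and protein coding genes of the HOXB cluster in chromosomal order, with TIPE2 libraries in red above Vector libraries in blue and 1 symbol per replicate number; HOXB1, at 0 in all libraries, is left out. HOXB-AS4 separates the groups, with TIPE2 values of 1.11 to 2.33 FPKM below Vector values of 2.93 to 3.97 FPKM, while HOXB-AS2 and HOXB-AS3 have their lowest point in Vector 1 and the coding genes overlap between the groups.

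The antisense genes studied most outside this cell line were taken from a list of 58 names. Of these, 54 were found by symbol, 35 have the type antisense, 9 are members and 21 of any type were tested with limma. Of the 21, 0 passed and 4 had an unadjusted p under 0.05, 2 of them higher and 2 lower in TIPE2 libraries, with 9 positive and 12 negative changes. PTOV1-AS2, inside PTOV1, had 2.19, 2.35 and 2.52 FPKM in the TIPE2 libraries, against 3.90, 3.07 and 2.93 FPKM in the Vector libraries, without overlap (log2 change -0.35, SE 0.12, limma adjusted p = 0.779). HOTAIRM1, an RNA known from myeloid differentiation, had 2.44, 2.71 and 3.25 FPKM in the TIPE2 libraries, against 3.81, 2.51 and 4.42 FPKM in the Vector libraries. NKILA, which in human breast cancer cells binds the NF-κB complex and blocks the phosphorylation of its inhibitor, had 2.02, 2.55 and 2.77 FPKM in the TIPE2 libraries, against 2.07, 2.33 and 2.14 FPKM in the Vector libraries. Both overlapped between the groups. NKILA faces PMEPA1, an inhibitor of TGF-β signalling, which had 25.6 to 32.4 FPKM in the TIPE2 libraries and 18.3 to 38.4 FPKM in the Vector libraries.

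LOXL1-AS1 was the steadiest of this list, with 6.73, 6.97 and 6.21 FPKM in the TIPE2 libraries, against 6.94, 6.14 and 6.90 FPKM in the Vector libraries, a log2 change of -0.0044 (SE 0.10, limma adjusted p = 0.993). Its partner LOXL1, an enzyme that cross-links elastin, had 21.0 to 28.5 FPKM in the TIPE2 libraries and 26.3 to 33.7 FPKM in the Vector libraries. TMPO-AS1, head to head with TMPO, the gene of a nuclear lamina protein, had 2.33, 2.57 and 1.38 FPKM in the TIPE2 libraries, against 2.94, 2.06 and 1.29 FPKM in the Vector libraries. In both groups replicate 3 was lowest, and TMPO was also lowest in replicate 3 of both groups, with 24.6 FPKM for TIPE2 3 against 26.5 FPKM for Vector 3.

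Host genes of small nucleolar RNAs formed a group of 4 members, ZFAS1, SNHG7, SNHG10 and SNHG12; such small RNAs guide chemical modification of ribosomal and spliceosomal RNA and are cut from the hosts' introns. ZFAS1 (chromosome 20, 49278178 to 49295738, plus strand), which holds 3 of them and starts head to head with the antiviral helicase gene ZNFX1, had 7.73, 9.64 and 11.0 FPKM in the TIPE2 libraries, against 14.5, 9.73 and 11.8 FPKM in the Vector libraries. SNHG7 had 5.62, 7.68 and 12.5 FPKM in the TIPE2 libraries, against 10.3, 8.21 and 12.0 FPKM in the Vector libraries. SNHG12 had 1.96, 2.63 and 4.29 FPKM in the TIPE2 libraries, against 3.86, 3.54 and 5.08 FPKM in the Vector libraries, and SNHG10 had 1.98, 2.41 and 5.02 FPKM in the TIPE2 libraries, against 3.03, 2.74 and 3.68 FPKM in the Vector libraries. All 4 overlapped between the groups and each was lowest in TIPE2 1.

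The log2 changes of these hosts ran from -0.41 for SNHG12 to -0.067 for SNHG10, whose sign turned when a library was left out, with a median of -0.29 beside -0.0056 over all genes, and none had an unadjusted p under 0.05 with limma. Their median deviation from the mean of the 6 libraries, on the log2(FPKM + 1) scale, came to -0.51 for TIPE2 1, -0.23 for TIPE2 2 and 0.34 for TIPE2 3, against 0.15 for Vector 1, -0.11 for Vector 2 and 0.29 for Vector 3. The share of all fragments from ribosomal protein genes was 3.80%, 4.08% and 4.92% in the TIPE2 libraries, against 5.38%, 4.08% and 4.26% in the Vector libraries, and was likewise lowest in TIPE2 1. Its part in the levels of these hosts was not tested. ZNFX1, with 6.34, 6.57 and 5.62 FPKM in the TIPE2 libraries, against 4.53, 6.84 and 6.85 FPKM in the Vector libraries, did not follow the order of ZFAS1.

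All 156 antisense genes together came to 797, 836 and 851 FPKM in the TIPE2 libraries, against 872, 827 and 851 FPKM in the Vector libraries, and took 0.176%, 0.179% and 0.174% of the assigned fragments in the TIPE2 libraries, against 0.166%, 0.175% and 0.183% in the Vector libraries. By geometry, the median log2 change was 0.0077 for the 46 head-to-head members, -0.029 for the 34 tail-to-tail members, -0.094 for the 41 members inside their partner, -0.23 for the 5 members that span theirs and -0.037 for the 30 members with no partner. Of the 5 spanning members 2 had an unadjusted p under 0.05 with limma, where 5.99% of all genes tested did. For 3 of the 5, AC080112.1, CASC8 and THUMPD3-AS1, TIPE2 values lay wholly below the Vector values, as for 5.31% of all genes. At that p were also 5 head-to-head members, 4 tail-to-tail, 3 inside their partner and 4 with no partner. TIPE2 values lay wholly below for 2, 1, 3 and 4 members of those classes in that order. They lay wholly above for 4, 4, 0 and 2 members of the same classes and for 0 of the spanning members, as for 6.18% of all genes. The part of geometry in the changes was not tested.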

How the data were processed

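The members and the gene lists were chosen with earlier results of these data known. RNA sequencing values of 6 SKOV3 libraries were used, grouped by their titles. Per the file headers, the authors gave FPKM for 58735 Ensembl identifiers in a table for each library. CASAVA 1.7, Bowtie and mm8, a mouse build, are named in the submitters' processing notes, whereas all 58735 identifiers are in the human GENCODE release 29, whose GRCh38 coordinates, exons and gene types were used. The counter, its handling of strand and of shared reads, and the library selection are not stated by the labels or headers. FPKM times exon length times a denominator for each library was a whole number of fragments, within 0.01, for 100% of values above 0. These denominators were 96.3% to 103% of the assigned fragments.

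TIPE2 was compared with Vector by limma 3.58.1 (R 4.3.3) on log2(FPKM + 1), with no covariate and with the trend and robust options of empirical Bayes, over 12538 genes that averaged 1 FPKM or more. Adjusted p is Benjamini-Hochberg over these genes, with a threshold of 0.05. Fold changes on this scale understate changes of low genes. The steps were tested on simulated data, but how often changes of the size seen here would pass is not given. Ratios of pairs were compared with exact two-sided permutation tests, adjusted over 126 pairs, in Python 3.11.15 with scipy 1.17.1. Named members are the 10 highest in level, the 8 with the smallest p in each direction, the 6 with the highest ratio to the partner, and those on a list of 58 characterised antisense RNAs. KRT7-AS, HOXB-AS2, HCG15, BX470102.1, THUMPD3-AS1, AC024075.3, AL928654.2, SNHG7, SNHG10 and SNHG12, partners other than the main one, and the other genes of the HOXB cluster were named after their values were seen. For 1 sense partner no values are reported here. Alternatives were a replicate block, each library left out, quantile normalization, other filters, a pseudocount of 0.1, limma with default empirical Bayes, other levels for members and, added after seeing the data, limma-voom. Sequences are from RefSeq tables on GRCh38.p14; 46 of 156 members matched a promoter window.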

Additional observations from a re-analysis of the deposited data

How the results depend on the processing

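No member and no main sense partner passed under any setting run, with limma or limma-voom, and TNFAIP8L2 passed under all of them. The number of members at an unadjusted p under 0.05, 18 as reported, was between 13 and 28 with each library left out, the highest without Vector 1. It was 6 for genes or members of at least 5 FPKM and 42 for members of at least 1 FPKM, where fewer or more genes are counted. These 42 were of 365 members, beside 5.99% of all genes tested. For the other settings here, the replicate block included, no share of all genes is given. The share of pairs with the same sign was 44.4% at a mean of at least 5 FPKM and 40.4% without Vector 1. The median change in the antisense to sense log2 ratio ran from -0.075 to 0.030 with each library left out. The deviations of same-numbered libraries from their group means correlated at -0.23, 0.15 and 0.19, so the numbers are not taken as pairs; with the replicate block, 0 members passed and 21 had an unadjusted p under 0.05. Both planned count models were not run, since the deposited unit is FPKM.

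Of 818 alternative values for 65 named genes, 767 kept their direction and 51 values of 23 genes turned it. Under quantile normalization the log2 change was 0.059 for AC099850.3, 0.033 for AL049870.3, -0.013 for TMPO-AS1, -0.015 for CLN8 and 0.075 for HOXB6. With each library left out, it ran from -0.16 to 0.12 for AC099850.3, from -0.27 to 0.00026 for AC005520.2, from -0.16 to 0.022 for AC005288.1, from -0.19 to 0.21 for AL049870.3, from -0.021 to 0.31 for AC015660.2, from -0.069 to 0.089 for AC100810.1, from -0.054 to 0.037 for LOXL1-AS1, from -0.19 to 0.20 for TMPO-AS1 and from -0.37 to 0.13 for SNHG10. Among sense genes it ran from -0.19 to 0.089 for PRR11, from -0.032 to 0.24 for PTOV1, from -0.077 to 0.44 for PMEPA1, from -0.055 to 0.53 for MED1, from -0.30 to 0.058 for ZSWIM4, from -0.048 to 0.056 for CLN8, from -0.25 to 0.011 for DHRS4L2, from -0.23 to 0.11 for DHRS4, from -0.13 to 0.12 for ZNFX1, from -0.13 to 0.20 for HOXB7, from -0.044 to 0.16 for HOXB2, from -0.0052 to 0.13 for HOXB4, from -0.086 to 0.22 for HOXB5 and from -0.040 to 0.068 for HOXB6. None of these genes had passed, and the cause was not tested.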
